A study of Mus musculus with 30 samples.

Results

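The 10 genes described here belong to the amino acid response that the transcription factor ATF4 drives: Atf4 itself, Asns, Chac1, Trib3, Ddit3, Ddit4, Sesn2, Slc7a5, Slc7a11 and Slc3a2. They were taken by gene symbol from the 50833 genes of the count table, and each symbol matched 1 row. All 10 are protein-coding and autosomal, as are 20569 genes of the table. RNA was sequenced from forelimb buds of wild-type Swiss Albino mouse embryos, whose mothers had received an intraperitoneal injection at E10.5, either of DMSO or of the porcupine inhibitor Wnt-C59 (C59), a small molecule that stops the secretion of WNT ligands. Buds were collected 1, 6, 12, 18 or 24 h after the injection, which gives 10 groups of 3 libraries and 30 libraries in all. Each library came from the forelimb buds of 1 embryo. The control injection was DMSO in saline, whereas the C59 solution also held methylcellulose and a detergent, so that the inhibitor and its carrier cannot be told apart here. The methods for embryo collection say that each condition and time drew on several litters, but no label ties a library to a litter, and p-values measure the spread between these embryos only.

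ATF4 is made mainly when the initiation factor eIF2 is phosphorylated, because upstream reading frames in its messenger RNA then let ribosomes reach the main coding frame. The kinases that phosphorylate eIF2 sense uncharged tRNA, unfolded protein in the endoplasmic reticulum, double-stranded RNA or a lack of heme. ATF4 then binds, with C/EBP partners, a short DNA element near genes for amino acid synthesis, amino acid import and tRNA charging, and it also turns on regulators that limit growth or its own activity. The amount of Atf4 messenger RNA, which is what was measured here, is therefore only one of the steps that set ATF4 activity. Growing embryonic tissue uses the same genes to supply amino acids for protein synthesis.

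The letters of that element, TGATGNAA with N standing for any base, were searched on both strands of the RefSeq promoter windows of the GRCm38.p6 build, which run from 250 bases before to 50 bases after each gene's start. They were found in 4 of the 9 members that have a window, and in 4.51% of the 27025 genes with one. The stretches with the match are shown because the 4 genes include some called lower, one called higher and one not called after C59. Capitals mark the matched letters, read 5′ to 3′ along each gene's own strand. The first is chr3:50443617-50443716 (minus strand) and lies wholly before the annotated start of Slc7a11. The second is chr6:7693214-7693243 (minus strand), in which the match begins 23 bases before the RefSeq start of Asns but falls in the first annotated exon of GENCODE M21. The third is chr2:119351003-119351102 (plus strand), before the start of Chac1. The fourth is chr2:152344028-152344057 (minus strand), in which the match begins at base 15 after the RefSeq start of Trib3 and 14 bases before the GENCODE start.
Slc7a11: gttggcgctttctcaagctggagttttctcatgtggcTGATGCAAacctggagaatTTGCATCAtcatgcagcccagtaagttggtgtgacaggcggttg
Asns: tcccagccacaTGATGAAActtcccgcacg
Chac1: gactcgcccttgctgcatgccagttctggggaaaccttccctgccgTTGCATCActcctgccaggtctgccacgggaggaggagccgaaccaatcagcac
Trib3: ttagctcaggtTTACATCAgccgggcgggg
Slc7a11 carried 2 matches on opposite strands, beginning 66 and 47 bases before its RefSeq start. Atf4, Ddit3, Ddit4, Sesn2 and Slc3a2 had no such letters in their windows. No window was used for Slc7a5. A match is a run of letters and not a bound site, and its absence says only that these letters are not in that stretch.

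Libraries held 18188636 to 38974885 counts. Protein-coding genes took over 97% of the counts in 4 libraries (DMSO 1 h, 6 h and 18 h replicate 1 and C59 24 h replicate 2) and 95.1 to 96.3% in the other 26. Calls were therefore repeated, each contrast without those of the 4 that it used. Axin2, a direct target of WNT signaling that serves as the check of the inhibitor, had log2 fold changes with C59 of -0.19 after 1 h, -1.97 after 6 h and -1.46 after 12 h, all called, and did not pass the test later. The limb mesenchyme markers were present in every group, with summed levels of 1230 to 1880 CPM per library, whereas the hindlimb markers summed to 9.83 to 23.7 CPM. Levels are given as CPM, counts scaled to library size, on 1 scale for all 30 libraries, and a gene was called when the adjusted p of edgeR's quasi-likelihood test, run over all tested protein-coding genes, was below 0.05. The study's own rule also asks for a log2 fold change beyond 1, and counts under it are given alongside.

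Levels of different genes were compared in FPKM, which corrects for transcript length. In the DMSO 1 h buds Atf4 stood first with 80.2 ± 7.23 FPKM (SD, n = 3). Ddit4 and Slc3a2 followed with 40.5 ± 3.0 and 37.9 ± 1.94 FPKM, and their libraries overlapped. Asns (25.3 ± 1.42 FPKM), Slc7a5 (18.9 ± 0.966 FPKM), Sesn2 (5.30 ± 0.417 FPKM), Ddit3 (4.22 ± 0.406 FPKM) and Slc7a11 (1.11 ± 0.0854 FPKM) came next, each below all libraries of the gene before it. Trib3 and Chac1 were lowest, with 0.700 ± 0.237 and 0.319 ± 0.134 FPKM, and overlapped each other. Chac1 rested on 6 to 31 counts per library and Trib3 on 25 to 122, while the other members had at least 99 counts in every library.

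The 10 genes did not move as a block after C59. Enzymes and carriers that supply amino acids fell at 6 h and 12 h together with Atf4, whereas Ddit4 rose from 6 h and Trib3 from 12 h. Because these are whole buds, fewer cells of a type and less RNA per cell cannot be told apart in any of these changes. At 6 h, 5 of the 10 were called lower and 1 higher, where 11.4% of all tested genes were lower and 8.20% higher. At 12 h, 5 were lower and 3 higher, against 25.5% and 22.0% of tested genes. At 18 h, 1 was lower and 2 were higher (background 3.62% and 3.46%), and at 24 h 1 was lower and 1 higher (3.56% and 2.88%). With a log2 fold change beyond 1 as well, 1 member passed after 6 h, 3 after 12 h, 2 after 18 h and 0 after 24 h, where 1.17%, 4.95%, 1.29% and 0.819% of tested genes passed. The median log2 fold change of the 10 was -0.15 at 6 h and -0.11 at 12 h, beside medians of 0.0050 and 0.017 over all tested genes.

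**Figure D1:**
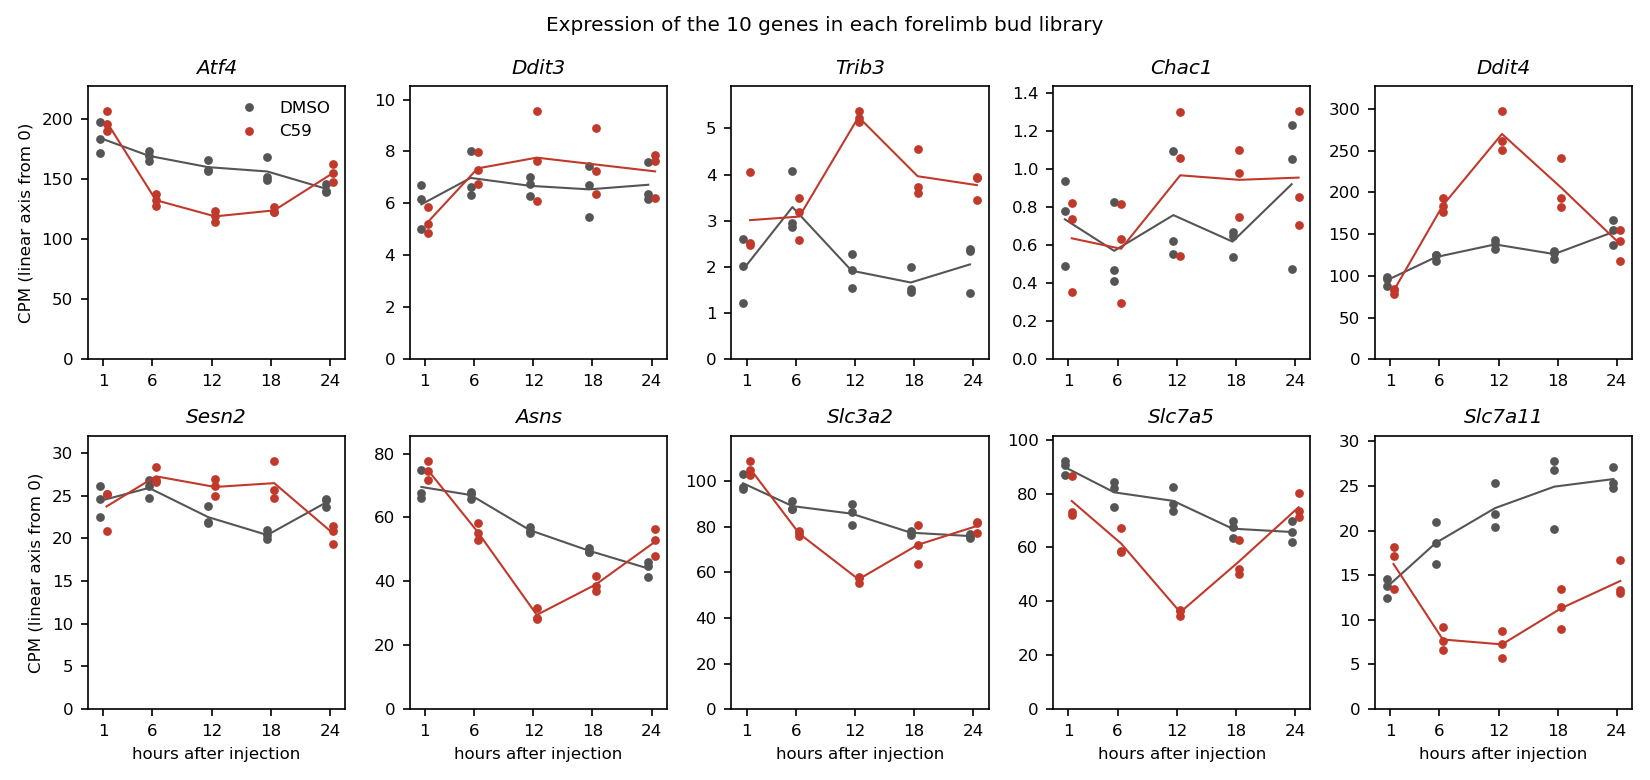
Level of each of the 10 genes in CPM (linear axis from 0) against hours after injection, with a point for each library, grey for DMSO and red for C59, and lines through the group means. Asns, Slc3a2 and Slc7a5 dip below the controls at 12 h and meet or pass them at 24 h, Slc7a11 stays below from 6 h on, and Ddit4 and Trib3 lie above at 12 h and 18 h.

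**Figure D2:**
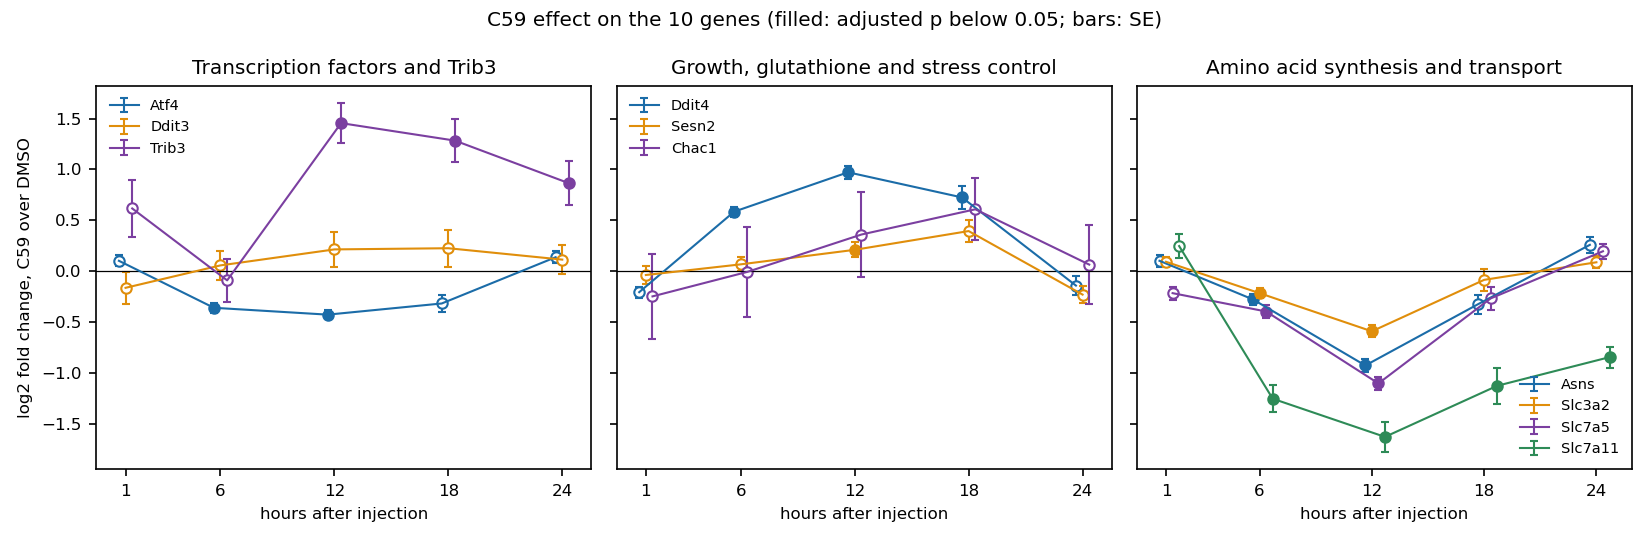
Log2 fold change of C59 over DMSO at each time, in 3 panels by role, with bars for the SE and filled points where the adjusted p is below 0.05. The transport and synthesis genes reach their lowest values at 12 h, when Slc7a11 is at -1.63, and Trib3 and Ddit4 their highest, 1.46 and 0.97.

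At 1 h no member was called by edgeR, where 1.14% of tested genes were higher, 1.61% lower and 0.283% also beyond a log2 fold change of 1. At an unadjusted p under 0.05 there were 3 members, Ddit4, Slc7a5 and Trib3, where 17.0% of tested genes passed. Ddit4 and Slc7a5 were the 2 members whose C59 and DMSO libraries did not overlap at 1 h, a separation that 22.0% of tested genes showed. Ddit4 stood at 98.7, 96.6 and 88.1 CPM in DMSO and at 84.1, 83.2 and 77.9 CPM with C59 (log2 fold change -0.21, SE 0.054, adjusted p = 0.0598). Slc7a5 had a log2 fold change of -0.22 (SE 0.065, adjusted p = 0.0914). DESeq2 called Ddit4 (adjusted p = 0.0392), and edgeR without a filter on low counts called both genes (adjusted p = 0.026 and 0.0376).

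Atf4 (ENSMUSG00000042406, chr15:80255184-80257541, plus strand) encodes the transcription factor itself. At 6 h it stood at 169, 165 and 173 CPM in the DMSO libraries and at 133, 138 and 127 CPM in the C59 libraries. At 12 h the values were 157, 166 and 157 CPM in DMSO and 119, 115 and 124 CPM with C59. Every C59 library was below every DMSO library at both times, and the log2 fold change was -0.36 (SE 0.047, adjusted p = 0.000144) at 6 h and -0.43 (SE 0.045, adjusted p = 3.11e-05) at 12 h. At 18 h the groups were still apart, with 123, 122 and 127 CPM against 168, 149 and 152 CPM in DMSO, but the change of -0.32 (SE 0.088) missed the threshold with an adjusted p of 0.0643. At 24 h all 3 C59 libraries were above the controls (155, 163 and 148 against 146, 140 and 140 CPM), with a log2 fold change of 0.14 (SE 0.058) that also did not pass (adjusted p = 0.182). For 18 h, DESeq2 called Atf4 lower (adjusted p = 0.0234), as did edgeR fitted to all 30 libraries (adjusted p = 5.81e-05).

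Asns (ENSMUSG00000029752, chr6:7675169-7693254, minus strand) makes asparagine from aspartate and glutamine. At 6 h it stood at 67.5, 65.7 and 67.9 CPM in DMSO and at 52.9, 55.2 and 58.4 CPM with C59 (log2 fold change -0.28, SE 0.055, adjusted p = 0.00316). At 12 h the control libraries held 55.3, 55.7 and 57.1 CPM and the C59 libraries 28.6, 28.3 and 31.5 CPM. The groups did not overlap, and Asns fell by 0.93 on the log2 scale (SE 0.062, adjusted p = 1.76e-06). At 18 h the C59 libraries were lower by a log2 fold change of -0.33 (SE 0.092, adjusted p = 0.0681), and at 24 h they were higher by 0.26 (SE 0.079, adjusted p = 0.0712), without overlap in either case and without passing the test. DESeq2 called Asns lower at 18 h (adjusted p = 0.0341). With edgeR fitted to all 30 libraries it was called lower at 18 h (adjusted p = 0.000309) and higher at 24 h (adjusted p = 0.0231).

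Slc3a2 (ENSMUSG00000010095, chr19:8706882-8723369, minus strand) encodes the heavy chain, 4F2hc, that carries both light chains described next to the cell surface. Slc7a5 (ENSMUSG00000040010, chr8:121881150-121907694, minus strand) is the light chain LAT1, which brings in large neutral amino acids such as leucine. Slc7a11 (ENSMUSG00000027737, chr3:49892526-50443614, minus strand) is the light chain xCT, which takes up cystine in exchange for glutamate and so feeds glutathione synthesis.

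Slc7a5 stood at 84.5, 81.9 and 75.1 CPM in DMSO and at 58.3, 58.8 and 67.4 CPM with C59 at 6 h. At 12 h it was at 76.0, 73.5 and 82.4 CPM in DMSO and at 34.5, 36.8 and 36.6 CPM with C59. The groups were apart at both times, and the log2 fold change went from -0.40 (SE 0.066, adjusted p = 0.000961) to -1.1 (SE 0.063, adjusted p = 8.57e-07), a 2.15-fold lower level at 12 h. By 24 h the C59 libraries (80.2, 73.4 and 71.2 CPM) were all above the controls (69.8, 65.6 and 61.9 CPM), with a log2 fold change of 0.20 (SE 0.073) that was not called (adjusted p = 0.133).

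Slc3a2 changed less. It stood at 88.0, 91.4 and 87.8 CPM in DMSO and 78.1, 77.1 and 75.7 CPM with C59 at 6 h, a log2 fold change of -0.22 (SE 0.048, adjusted p = 0.00625). At 12 h the values were 86.5, 80.8 and 89.9 CPM against 55.2, 58.1 and 57.6 CPM with C59, and the log2 fold change was -0.59 (SE 0.057, adjusted p = 1.81e-05). Neither time showed overlap. At 18 h the C59 libraries spread from 63.6 to 80.8 CPM around the controls at 76.3 to 78.3 CPM and the groups overlapped.

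Slc7a11 had the largest fall of the 10 genes at each of the 4 times from 6 h to 24 h. With edgeR on the libraries of each time, it was the only member called lower at 18 h and at 24 h. At 6 h it stood at 16.3, 21 and 18.6 CPM in DMSO and at 9.19, 6.62 and 7.57 CPM with C59 (log2 fold change -1.25, SE 0.13, adjusted p = 2.1e-05). At 12 h it was at 21.8, 20.4 and 25.3 CPM against 5.78, 7.27 and 8.69 CPM (log2 fold change -1.63, SE 0.15, adjusted p = 1.01e-05). At 18 h it was at 20.2, 26.7 and 27.8 CPM against 13.5, 11.4 and 8.97 CPM (log2 fold change -1.12, SE 0.18, adjusted p = 0.00815). At 24 h, when Asns, Slc7a5 and Slc3a2 were at or above the control level, Slc7a11 was still at 13.0, 13.4 and 16.7 CPM against 24.8, 27.1 and 25.4 CPM (log2 fold change -0.84, SE 0.10, adjusted p = 0.000517). The groups were apart at all 4 times. Without DMSO replicate 3 the call at 18 h was narrowly lost, with a log2 fold change of -1.04 and an adjusted p of 0.0506. In other fits Slc7a11 was not alone at 18 h. DESeq2 also called Atf4 and Asns lower (adjusted p = 0.0234 and 0.0341). A fit of edgeR to all 30 libraries called Atf4, Asns and Slc7a5 lower (adjusted p = 5.81e-05, 0.000309 and 0.0109).

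Ddit4 (ENSMUSG00000020108, chr10:59949669-59951834, minus strand) encodes REDD1, an inhibitor of the growth kinase complex mTORC1. It rose at 6 h, from 125, 125 and 118 CPM in DMSO to 193, 184 and 176 CPM with C59 (log2 fold change 0.59, SE 0.049, adjusted p = 3.14e-06). At 12 h it was at 143, 138 and 132 CPM in DMSO and at 298, 262 and 250 CPM with C59 (log2 fold change 0.97, SE 0.064, adjusted p = 1.62e-06). At 18 h the C59 libraries held 183, 193 and 241 CPM and the controls 127, 130 and 121 CPM (log2 fold change 0.73, SE 0.12, adjusted p = 0.0096, and 0.0681 without DMSO replicate 3). The groups did not overlap at these 3 times, but they did at 24 h, when DMSO stood at 136, 166 and 155 CPM and C59 at 154, 118 and 141 CPM.

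Trib3 (ENSMUSG00000032715, chr2:152337422-152344032, minus strand) encodes a pseudokinase that binds ATF4 and the kinase AKT and restrains both. At 6 h its libraries overlapped (2.95, 2.87 and 4.07 CPM in DMSO, 2.59, 3.48 and 3.2 CPM with C59). At 12 h it was at 1.55, 2.28 and 1.92 CPM in DMSO and at 5.23, 5.13 and 5.38 CPM with C59, a 2.74-fold higher level (log2 fold change 1.46, SE 0.19, adjusted p = 0.000149). At 18 h the values were 1.46, 1.53 and 2.0 CPM against 3.74, 3.6 and 4.56 CPM with C59, and the log2 fold change was 1.28 (SE 0.21, adjusted p = 0.0109). The C59 libraries were also all higher at 24 h (3.92, 3.96 and 3.44 CPM against 1.44, 2.34 and 2.38 CPM), with a log2 fold change of 0.86 (SE 0.22, adjusted p = 0.0345), a call that was lost on leaving out any library except C59 replicate 3, with adjusted p-values of 0.0648 to 0.136, and in limma on FPKM (0.0555 and 0.0697). Without DMSO replicate 1, one of the 4 libraries of high protein-coding share, or DMSO replicate 2, the call at 18 h was lost as well, with adjusted p-values of 0.0535 and 0.0562.

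Sesn2 (ENSMUSG00000028893, chr4:132492032-132510501, minus strand) encodes a leucine-binding stress protein that holds back mTORC1. At 12 h it stood at 21.8, 23.8 and 22.0 CPM in DMSO and at 26.2, 24.9 and 27 CPM with C59 (log2 fold change 0.21, SE 0.073, adjusted p = 0.0347). The groups were apart, but the call was lost in DESeq2 (adjusted p = 0.088) and on leaving out replicate 1 or 3 of either group. At 18 h the difference was wider, with 20.9, 20.4 and 19.9 CPM against 25.6, 24.7 and 29.1 CPM (log2 fold change 0.39, SE 0.11), and did not pass (adjusted p = 0.0587). It was called higher in DESeq2 (adjusted p = 0.0266) and in edgeR fitted to all 30 libraries (adjusted p = 0.000598). At 24 h all 3 C59 libraries were below the controls, at 21.4, 20.9 and 19.4 against 24.5, 23.6 and 24.6 CPM (log2 fold change -0.23, SE 0.081, adjusted p = 0.114). A noncoding gene, Gm12981, lies within the Sesn2 locus on the same strand, so some reads could belong to either.

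Ddit3 (ENSMUSG00000025408, chr10:127290774-127296288, plus strand) encodes CHOP, the C/EBP-family factor known from prolonged endoplasmic reticulum stress. It was not called at any time. At 12 h it ranged from 6.28 to 7.01 CPM in DMSO and from 6.10 to 9.56 CPM with C59, and the groups overlapped (log2 fold change 0.21, SE 0.17, adjusted p = 0.319). Its ends overlap Mars1 and Gm4189 on the other strand, and whether counting used strand is not stated, so reads there cannot be told apart. The same holds for Slc7a5, which lies within the span of Gm20388, and for Slc7a11, whose span holds Gm37854, both on the opposite strand. Chac1 (ENSMUSG00000027313, chr2:119351229-119354381, plus strand) encodes an enzyme that breaks down glutathione, and is often among the most responsive ATF4 targets. It lay between 0.294 and 1.31 CPM in all 30 libraries, and its log2 fold changes of -0.25 to 0.61 had SEs of 0.30 to 0.44, so that a change of that size was not detectable at this depth. At 18 h its 3 C59 libraries (0.982, 0.749 and 1.1 CPM) were all above the controls (0.649, 0.669 and 0.540 CPM), with an adjusted p of 0.257.

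The groups of C59 and DMSO libraries were apart for 6 of the 10 genes after 6 h, 8 after 12 h, 8 after 18 h and 7 after 24 h, where 36.8%, 57.1%, 34.2% and 27.7% of all tested genes were. The number of calls at 18 h turned on single libraries. C59 18 h replicate 3 held 241 CPM of Ddit4, 80.8 CPM of Slc3a2 and 62.7 CPM of Slc7a5, above its 2 replicates in each case. Without it, 7 members were called (Atf4, Asns, Slc7a5 and Slc7a11 lower, Trib3, Ddit4 and Sesn2 higher), but the calls over all tested genes also rose, to 9.20% lower and 7.01% higher. Without DMSO 18 h replicate 3 only Trib3 was called, where 1.03% of tested genes were lower and 0.367% higher.

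The C59 effect itself differed between neighbouring times for several members, tested as an interaction. From 1 h to 6 h it moved down for 4 (Atf4, Asns, Slc7a11, Slc3a2) and up for Ddit4, where 7.65% and 5.31% of tested genes did so. From 6 h to 12 h it moved further down for Asns, Slc7a5 and Slc3a2 and up for Trib3 and Ddit4 (background 11.5% and 6.59%). From 12 h to 18 h it moved up for Asns, Slc7a5 and Slc3a2 and down for none (4.94% and 3.55%), and from 18 h to 24 h up for Atf4 and Asns and down for Ddit4 and Sesn2 (3.53% and 3.43%). Adjacent tests share their middle time point. The call for Slc3a2 from 12 h to 18 h was lost on leaving out any of 4 libraries (adjusted p up to 0.0663), and those for Atf4 and Asns from 18 h to 24 h without the libraries of high protein-coding share (0.0833 and 0.0652). The Slc3a2 call was also lost in limma on FPKM (0.0527 and 0.0513). For Ddit4 the call from 6 h to 12 h was lost in edgeR fitted to all 30 libraries (0.0523). Slc7a11 changed its effect between 1 h and 6 h, and for the later steps the test of the change was not passed (adjusted p = 0.243, 0.227 and 0.476).

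The control buds changed over the same day, and the design allows this to be set beside the C59 effect. From 1 h to 24 h in DMSO, 4 members fell and 2 rose, where 29.2% of tested genes fell, 30.2% rose and 12.0% were called beyond a log2 fold change of 1, a size none of the 10 reached. Asns went from 66.1, 67.6 and 75.0 CPM to 44.8, 46.0 and 41.3 CPM (log2 fold change -0.66, SE 0.062, adjusted p = 4.7e-07). Slc7a5 fell by 0.45 (SE 0.052), Slc3a2 by 0.38 (SE 0.046) and Atf4 by 0.38 (SE 0.052) on the log2 scale. Ddit4 rose from 98.7, 96.6 and 88.1 to 136, 166 and 155 CPM (log2 fold change 0.69, SE 0.066, adjusted p = 5.81e-07). For these 5 genes the sign with age in the controls was that of C59 at 12 h. How many of all tested genes agree in sign in this way is not given here.

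Slc7a11 was the exception. In the controls it rose from 12.5, 13.8 and 14.6 CPM at 1 h to 24.8, 27.1 and 25.4 CPM at 24 h (log2 fold change 0.92, SE 0.085, adjusted p = 4.41e-07), while C59 lowered it. Trib3 and Sesn2 had log2 fold changes with age of 0.072 (SE 0.29) and -0.0061 (SE 0.077) and did not pass. For 7 members the 3 C59 libraries at 12 h lay outside the range of all 15 DMSO libraries of any age, below it for Atf4, Asns, Slc7a5, Slc7a11 and Slc3a2 and above it for Trib3 and Ddit4, as did 23.7% of tested genes. Asns, for example, was at most 31.5 CPM in these buds and at least 41.3 CPM in every control.

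**Figure D3:**
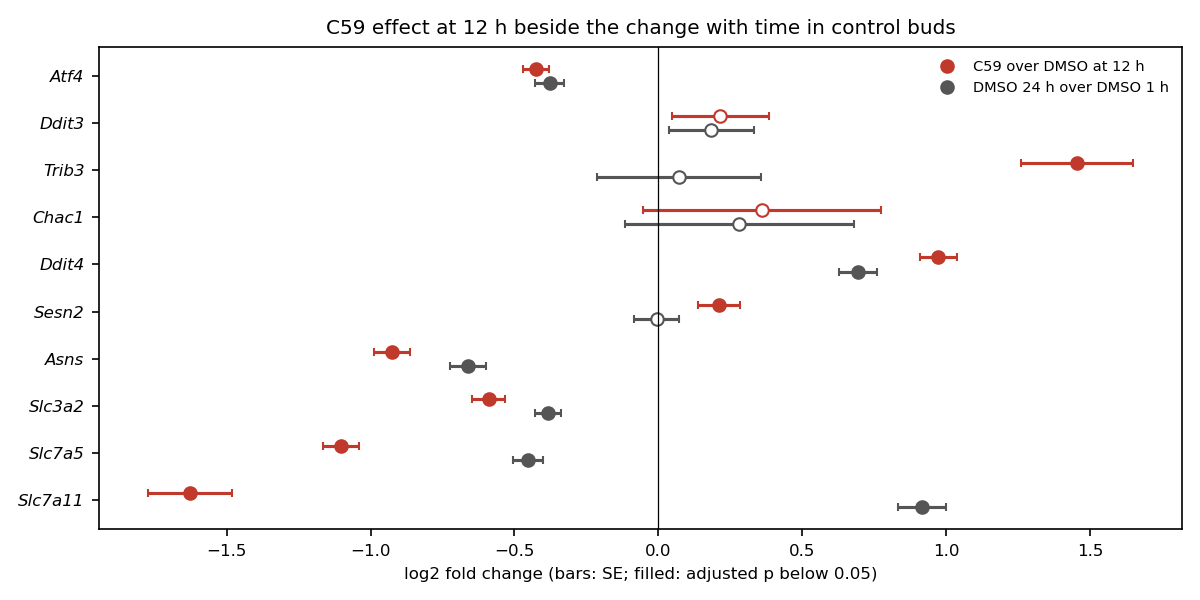
Log2 fold change of each gene for C59 over DMSO at 12 h (red) and for DMSO 24 h over DMSO 1 h (grey), with SE bars and filled points where the adjusted p is below 0.05. Both contrasts point the same way for Atf4, Asns, Slc3a2, Slc7a5 and Ddit4, and opposite ways for Slc7a11, at -1.63 and 0.92.

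Other genes known as ATF4 targets were called in both directions at 12 h and in a single direction at the other times. Of 20 tested, 7 were called lower and 0 higher at 6 h, and 11 lower and 5 higher at 12 h, with a median log2 fold change of -0.13 and -0.28. Over all tested genes, 11.4% were lower and 8.20% higher at 6 h, 25.5% and 22.0% at 12 h, 3.62% and 3.46% at 18 h, and 3.56% and 2.88% at 24 h. These shares also stand beside the lists below. Mthfd2, a mitochondrial folate enzyme, was at 71.1 ± 4.77 CPM in DMSO and 24.0 ± 0.527 CPM with C59 at 12 h (SD, n = 3), a log2 fold change of -1.57 (SE 0.068, adjusted p = 2.29e-07). Cth, which makes cysteine from cystathionine, fell by 1.46 (SE 0.12) on the log2 scale at 12 h and had led at 6 h with a fall of 0.61 (SE 0.078). The higher ones with the largest change at 12 h were the bZIP repressors Atf3 and Jdp2, with log2 fold changes of 0.70 (SE 0.27, adjusted p = 0.05) and 0.59 (SE 0.17). At 18 h 3 were lower and 0 higher (Psat1 -0.50 and Cth -0.45 in log2 fold change), and at 24 h 3 were higher and 0 lower, among them Jdp2 at 0.66 (SE 0.12) and Psat1, a serine synthesis enzyme, at 0.30 (SE 0.055). At 1 h only Cebpg, a partner of ATF4, was called, and it was lower by 0.57 (SE 0.066) on the log2 scale. Gdf15, Nupr1 and Fgf21, which are also known targets, were too low to be tested.

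Of 11 other amino acid transporters tested, 5 were lower and 0 higher at 6 h and 7 were lower and 3 higher at 12 h. The neutral amino acid carriers Slc1a5 and Slc1a4 fell by 1.08 (SE 0.070) and 0.99 (SE 0.11) on the log2 scale at 12 h. Slc7a8, a light chain that pairs with Slc3a2 as Slc7a5 does, had a log2 fold change of 0.71 (SE 0.23, adjusted p = 0.0267), and Slc6a9, a glycine carrier, one of 0.30 (SE 0.11). At 1 h the glutamate carrier Slc1a3 was the one called, and was lower by 0.43 (SE 0.092) on the log2 scale. At 18 h edgeR called 0 of the 11, and 2 without C59 replicate 3, and at 24 h Slc1a4 was higher (0.32, SE 0.086) and Slc38a2 lower (-0.28, SE 0.071). The tRNA synthetase list of 19 genes also held Xpot, which encodes a tRNA exporter and was called lower at 6 h (-0.26) and 12 h (-0.54). Of these 19, 10 were lower and 0 higher at 6 h, 17 lower and 1 higher at 12 h and 2 lower and 0 higher at 18 h, where 6 were called without C59 replicate 3. Vars, which charges valine tRNA, went from 244 ± 3.41 to 126 ± 4.14 CPM at 12 h (log2 fold change -0.95, SE 0.043), Mars1 had a log2 fold change of -0.71 (SE 0.050), and Qars was the one gene called higher (0.27, SE 0.039). In the controls 18 of these 19 fell from 1 h to 24 h and 0 rose.

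Upstream of ATF4, 13 genes of eIF2 and its control were tested. Of the 4 kinases, Eif2ak3 (PERK, the sensor of unfolded protein) was called higher at 6 h, with a log2 fold change of 0.30 (SE 0.064, adjusted p = 0.00463), and Eif2ak2 (PKR) at 12 h, with 0.23 (SE 0.073, adjusted p = 0.0221). Eif2ak4 (GCN2, the sensor of uncharged tRNA) had log2 fold changes of -0.11 (SE 0.054) at 6 h and -0.12 (SE 0.056) at 12 h and was not called. Eif2ak1 (HRI) had -0.13 (SE 0.056) and -0.11 (SE 0.058) and was not called. The others moved mainly down, so that in all 4 were lower and 1 higher at 6 h and 8 lower and 1 higher at 12 h. The eIF2 subunit gene Eif2s2 fell by 0.74 (SE 0.045) and Eif2b3, a subunit of its exchange factor, by 0.67 (SE 0.067) on the log2 scale at 12 h. At 1 h, 18 h and 24 h edgeR called 0 of the 13, and 5 at 18 h without C59 replicate 3. These are transcript levels, and neither phosphorylation of eIF2 nor ATF4 protein was measured here.

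Chaperones and folding enzymes of the endoplasmic reticulum mark the unfolded protein response, and the chaperone list, which holds them, followed another course. This list also held the transcription factors Atf6 and Xbp1 and the genes Sel1l and Edem1, which act in the degradation of misfolded protein. Of 16 tested, 2 were higher and 0 lower at 1 h and again at 6 h. At 12 h 13 were lower, with Sdf2l1 at a log2 fold change of -0.73 (SE 0.070) and Hyou1 at -0.70 (SE 0.052). The 2 called higher were Atf6 at 0.31 (SE 0.073) and Sel1l at 0.19 (SE 0.060), so that no chaperone or folding enzyme was called higher. At 18 h edgeR called 0 of the 16, and 3 without C59 replicate 3, and at 24 h 3 were higher and 0 lower. The change of the C59 effect from 6 h to 12 h was called lower for 13 of the 16.

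**Figure D4:**
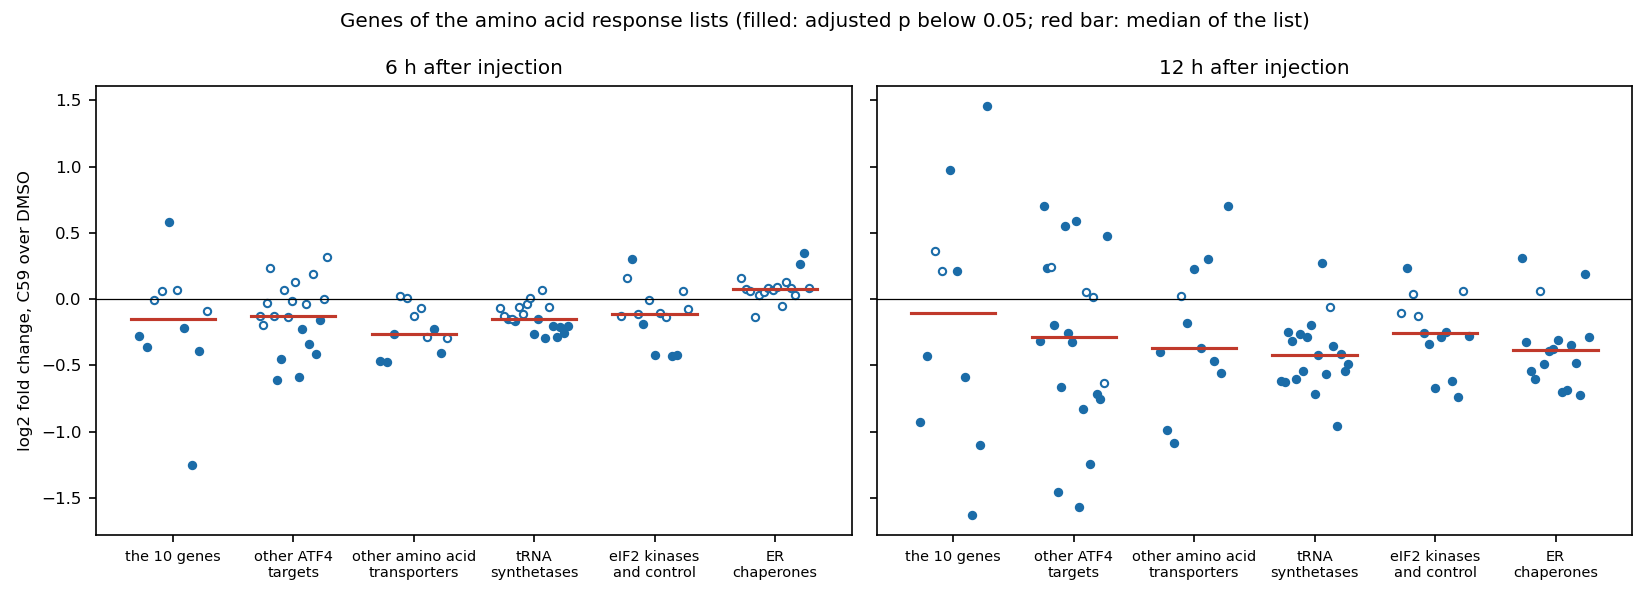
Log2 fold change of C59 over DMSO at 6 h and 12 h for each tested gene of 6 lists, with filled points where the adjusted p is below 0.05 and a red bar at the median of each list. The median of the tRNA synthetase list goes from -0.15 to -0.42 and that of the chaperone list from 0.079 to -0.39, while the 10 genes spread on both sides of 0.

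The response element letters were also searched in these lists. They were found in 7 of 21 other ATF4 targets with a promoter window, in 5 of 12 genes of the tRNA synthetase list and in 1 of 9 other transporters. None of 10 eIF2 genes or 13 genes of the chaperone list had them, beside 4.51% of all genes. The 5 tRNA synthetase genes (Aars, Gars, Iars, Tars and Yars) were all called lower at 12 h, with log2 fold changes of -0.61 to -0.35, as was the transporter Slc1a4. With or without the letters, 17 of the 19 genes of the tRNA synthetase list and 7 of the 11 transporters were lower then. Of the 5 tested targets with the letters, Pycr1 and Herpud1 were lower and Atf3, Vldlr and Jdp2 higher. Among the members the letters were likewise found in genes that fell (Slc7a11, Asns), in one that rose (Trib3) and in one that was not called (Chac1). The lists were drawn up as known ATF4 targets, which were partly found through this element, so these shares are a description.

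Other response programs were counted in the same way. Over all tested genes, 8.20% were called higher and 11.4% lower at 6 h, 22.0% and 25.5% at 12 h, and 3.46% and 3.62% at 18 h. Ddit4 is also a known target of hypoxia, and of 12 other hypoxia genes 2 were higher and 1 lower at 6 h, 5 higher and 1 lower at 12 h and 3 higher and 0 lower at 18 h. The hypoxia gene with the largest rise at 12 h was Ndrg1, at a log2 fold change of 1.01 (SE 0.21). Of the p53 targets, 5 of 11 tested were higher and 2 lower at 6 h, and 4 of 12 were higher and 2 lower at 12 h, with Trp53inp1 at 1.23 (SE 0.068) and Aen at -1.19 (SE 0.076) at 12 h. Of 9 targets of NRF2, the factor of oxidative stress that also acts on Slc7a11, 3 were lower and 0 higher both at 6 h and at 12 h, with Gsr at -0.78 (SE 0.054) and Txnrd1 at -0.77 (SE 0.049) at 12 h. Among 7 tested glucocorticoid targets 2 were higher and 1 lower at 6 h and 1 was higher and 1 lower at 12 h, and among 7 immediate early genes 1 was higher at 6 h, while at 12 h 1 was higher (Jun, 1.02, SE 0.12) and 1 lower (Ier2, -0.43, SE 0.050). At 1 h, when no member was called, Egr1 of the immediate early genes was, with a log2 fold change of 0.90.

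Markers of other cells changed as well, but not alike at 6 h and 12 h. At 6 h the ectoderm, macrophage, endothelial and erythroid sums of C59 and DMSO libraries overlapped. Of the single genes, 1 of 6 ectoderm markers was called higher and 2 lower. Also lower were 1 of 5 endothelial and 2 of 6 erythroid markers, with 0 higher in both lists, and 0 of 4 macrophage markers were called. The limb mesenchyme sum was then lower with C59 (1316 to 1425 against 1856 to 1880 CPM, 4 of 6 called lower and 0 higher). The muscle progenitor sum was higher (81.6 to 93 against 57.4 to 60.7 CPM, 2 of 4 called higher and 1 lower). Its genes did not move together. Myod1 and Myog were higher, with log2 fold changes of 1.46 (SE 0.099) and 1.03 (SE 0.12). Pax3 was lower, at -0.80 (SE 0.10), so the sum does not stand for all muscle progenitor markers. At 12 h the 6 ectoderm markers summed to 334 to 458 CPM in the C59 libraries and 239 to 267 CPM in the controls, and 5 of 6 were called higher. The 4 macrophage markers summed to 31.7 to 33.2 CPM against 17.3 to 19.9 CPM, all 4 called higher, and of 5 endothelial markers 3 were higher (327 to 362 against 261 to 285 CPM). The 6 limb mesenchyme markers summed to 1230 to 1285 CPM against 1769 to 1868 CPM, with 5 called lower and Tbx5 higher. At 24 h the ectoderm and macrophage sums were still above the controls (352 to 387 against 299 to 307 CPM, and 43.3 to 45.7 against 32.5 to 35.5 CPM). The endothelial sum was then below them (239 to 260 against 282 to 286 CPM). Also at 12 h, 2 of 4 muscle progenitor markers were higher and 2 lower, 1 of 6 erythroid markers was higher, and neither of the 2 hindlimb markers was called. Erythroid markers summed to 5959 to 8408 CPM with C59 and 4490 to 6044 CPM in DMSO at 1 h, and the groups overlapped both then and at 12 h. At 1 h 2 of the 6 were called higher and 0 lower, where 1.14% of tested genes were higher and 1.61% lower. They were Hbb-bh1 and Hbb-y, with log2 fold changes of 0.53 (SE 0.086) and 0.50 (SE 0.099). No marker was at 0 in a whole group. The part of these cell types in the changes of the 10 genes was not tested.

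Likeness of pattern was described with Pearson's r of log2 CPM over the 30 libraries. These fall into 10 groups of shared treatment and time, so r reflects mostly the group means, and no p is given. Asns, Slc3a2 and Slc7a5 ran together (r = 0.92 for Asns and Slc3a2, 0.89 for Asns and Slc7a5, 0.90 for Slc7a5 and Slc3a2), and Atf4 ran with them (r = 0.81 to 0.90) and opposite to Ddit4 (r = -0.94). When the group means were taken out, Slc7a5 and Slc3a2 still had r = 0.61 and Slc3a2 and Ddit4 changed from -0.89 to 0.41, whereas Atf4 and Asns went from 0.87 to 0.055. C59 18 h replicate 3 was above the other replicates of its group for Slc7a5 (62.7 CPM), Slc3a2 (80.8 CPM) and Ddit4 (241 CPM). How far the r values of these genes rest on that library was not tested. Slc7a11 had r of 0.35 to 0.54 with these 4 genes. The non-member most like Slc7a5 among 14029 tested genes was Mthfd2 (r = 0.96), and that most like Slc3a2 was Cth (r = 0.97), both on the list of other targets. For Atf4 it was Lsg1 (r = 0.95), for Asns Ppa1 (0.97), for Ddit4 Ephb3 (0.97), for Slc7a11 Sertad4 (0.87), for Sesn2 Zfp691 (0.75), for Trib3 Saraf (0.74), for Ddit3 Nmrk1 (0.68) and for Chac1 Arl4c (0.61).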

How the data were processed

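After trimming (Cutadapt 1.16), the authors aligned reads to mm10 using STAR 2.7.0e. The deposited table holds raw counts per autosomal gene. The deposited FPKM values were computed by the authors with Cufflinks 2.2.1, unstranded, with multi-read and bias correction. Strand of counting is not given in the sources used here. Counts of protein-coding genes were tested with edgeR 4.0.16 (R 4.3.3; quasi-likelihood, TMM, filterByExpr with a minimum count of 10), separately for each contrast on its own libraries, two-sided, with Benjamini-Hochberg adjustment over all tested genes. The SE is the log2 fold change over the square root of F. CPM used TMM factors over all 30 libraries, with 0.5 added before logs. DESeq2 1.42.0, limma 3.58.1 on FPKM, other filters and scalings, a replicate block and leaving out each library were alternatives. The script was tested on simulated data. The members and gene lists were chosen with earlier results of these data known. Named genes are all members, the eIF2 kinases, Axin2, of each list up to 2 called genes with the largest change each way, and each member's most alike gene. List genes named for carrying the response element or for a role other than that of their list, untested genes and the marker Tbx5 were named after their values were seen. Loci are from GENCODE M21 (GRCm38).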

Additional observations from a re-analysis of the deposited data

Results flagged for a closer look

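The C59 effect on a member differed between neighbouring times in 17 cases, each by the interaction term of edgeR's quasi-likelihood test at an adjusted p below 0.05. Values are changes of the log2 fold change of C59 over DMSO. Over all tested genes, 7.65% were called lower and 5.31% higher from 1 h to 6 h, and 11.5% and 6.59% from 6 h to 12 h. For the later steps the shares were 3.55% lower and 4.94% higher from 12 h to 18 h. From 18 h to 24 h they were 3.43% and 3.53%. From 1 h to 6 h the effect changed by -0.46 for Atf4, -0.38 for Asns, -0.31 for Slc3a2 and -1.50 for Slc7a11, and by 0.79 for Ddit4. From 6 h to 12 h it changed by -0.65 for Asns, -0.71 for Slc7a5 and -0.38 for Slc3a2, and by 1.54 for Trib3 and 0.38 for Ddit4. From 12 h to 18 h it changed by 0.60 for Asns, 0.84 for Slc7a5 and 0.51 for Slc3a2. From 18 h to 24 h it changed by 0.44 for Atf4 and 0.58 for Asns, and by -0.87 for Ddit4 and -0.63 for Sesn2. Some of these calls were lost under alternatives. Those for Atf4 and Asns from 18 h to 24 h were lost without the libraries of high protein-coding share. The call for Slc3a2 from 12 h to 18 h was lost in both limma fits, and that for Ddit4 from 6 h to 12 h in the fit of all 30 libraries.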

How the results depend on the processing

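Of 1820 fold changes of members under alternatives, 766 belonged to called members: 737 kept their direction and call, 29 lost the call and 0 reversed. Called members numbered 0 at 1 h (1 in DESeq2, 2 without a filter on low counts, 0 to 1 on leaving out a library), 6 at 6 h and 8 at 12 h. At 12 h the call for Sesn2 was lost in DESeq2 (adjusted p = 0.088) and in edgeR on leaving out replicate 1 or 3 of either group (adjusted p = 0.0623 to 0.122). Called members numbered 3 at 18 h (6 in DESeq2, 7 in a fit of all 30 libraries, 1 without DMSO replicate 3 to 7 without C59 replicate 3). Over all tested genes, 3.62% were lower and 3.46% higher at 18 h. The shares were 9.20% and 7.01% without C59 replicate 3 and 1.03% and 0.367% without DMSO replicate 3. For the other alternatives no share over all tested genes is given. Their counts therefore do not tell whether the members changed more than other genes. At 24 h they numbered 2 (1 in both limma fits on FPKM and 1 to 3 on leaving out a library). Leaving out libraries of high protein-coding share, a setting chosen after seeing the data, drops only C59 replicate 2 at 24 h and gave 1. With the log2 fold change beyond 1 required, the counts were 1 at 6 h, 3 at 12 h, 0 at 24 h and 0 in DMSO over time, and for the changes of the effect 1, 1, 0 and 0. Without DMSO 18 h replicate 1 and C59 24 h replicate 2, the libraries of high protein-coding share at these times, the change from 18 h to 24 h was called for 2 members. The cause of these shifts in the counts was not tested.

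With the replicate number as a block, the counts were 0, 6, 8, 3 and 2 over the 5 times, 6 for DMSO over time and 5, 5, 3 and 4 for the changes of the effect, as without it. Within a time, deviations of same-numbered DMSO and C59 libraries correlated between -0.213 and 0.136. With so few libraries per group, this does not tell whether same-numbered libraries shared a litter or a day of processing.

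The reversed values were those of uncalled members. Chac1 at 6 h was 0.0125 in DESeq2, 0.00184 in the fit of all libraries, 0.0189 and 0.0423 in limma with 1 and 0.1 added and 0.00509 with the replicate block. It was 0.406 without DMSO 6 h replicate 1, the only library of high protein-coding share there, and its change from 6 h to 12 h was then -0.0334. Sesn2 in DMSO over time was 0.00556 with a mean of at least 1 CPM, 0.0507 and 0.0594 in limma and 0.00341 without DMSO 1 h replicate 1, the only such library there. The change for Ddit3 from 12 h to 18 h was -0.0107 without a filter, -0.00158 with all libraries and -0.00687 and -0.00391 in limma. On leaving out a library, Chac1 ran from -0.48 to 0.0657 at 1 h, -0.329 to 0.406 at 6 h and -0.259 to 0.308 at 24 h, and its changes from -0.0868 to 0.658, -0.0334 to 0.752 and -0.121 to 0.535. Sesn2 ran from -0.101 to 0.0489 at 1 h and -0.0685 to 0.0401 in DMSO, Trib3 from -0.177 to 0.0772 at 6 h and -0.158 to 0.348 in DMSO, and Ddit3 from -0.00759 to 0.179 at 6 h, with changes of -0.016 to 0.325, -0.132 to 0.197 and -0.233 to 0.0129. At 6 to 31 counts per library, depth limits Chac1 most.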
